A study of Caenorhabditis elegans with 32 samples.

Results

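The change in gene expression between day 1 and day 7 of adulthood was compared between animals cultured at 21% O2 and animals cultured at 7% O2, in RNA from whole worms (Caenorhabditis elegans, hermaphrodites). Members were chosen by label alone: the 16 of the 32 libraries of the series that came from whole worms, 4 biological replicates in each of 4 groups (day 1 and day 7 at 21% O2, day 1 and day 7 at 7% O2). The quantity reported is the age by O2 interaction, the log2 change from day 1 to day 7 at 21% O2 minus the same change at 7% O2. A negative value means that a gene dropped more, or climbed less, with age at 21% O2 than at 7% O2. Changes and interactions are given on the log2 scale with their standard error (estimate ± SE), from 4 libraries per group, and rose and fell are used of changes past the thresholds given below.

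Animals of every group were of strain KL123. They carried the ad609 loss-of-function allele of npr-1, a neuropeptide receptor gene, and iaIs25, a transgene with the gcy-37 promoter driving GFP in the neurons that sense ambient O2 together with an unc-119 rescue. All were fed OP50 bacteria until the third larval stage and then bacteria expressing double-stranded RNA against mex-3, a maternal gene needed in embryos. Day 1 animals were collected from the RNAi plates, whereas day 7 animals had been moved back to OP50 on day 4, so age, food at collection and time since RNAi differed together at both O2 levels and cannot be told apart. A whole-worm sample was an aliquot of the enzymatically dissociated worms taken before neurons were sorted, so cells that resisted dissociation may be missing from it. In such bulk RNA, fewer cells of a type and less RNA per cell cannot be told apart.

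The O2 level at which C. elegans grows sets the activity of its O2-sensing neurons and of the hypoxia factor HIF-1, and 21% O2, the level of air, is above the level the animals prefer. Muscles of the worm body wall pull on the cuticle through the epidermis: laminins, type IV collagen and perlecan form the basement membrane between muscle and epidermis, integrin complexes anchor the sarcomeres to it, and fibrous organelles with myotactin and intermediate filaments carry the force through the epidermis. The adult epidermis secretes the cuticle collagens, the intestine makes yolk proteins, lysozymes and proteases, and the germline holds much of the RNA of an adult.

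Total counts of the 16 libraries ran from 5365596 to 14778342, with 8578978 to 14778342 on day 1 and 6310558 to 7016010 on day 7 at 21% O2 and 8562200 to 12528127 and 5365596 to 8906513 at 7% O2, and a single gene, F31C3.14, took 28.4% to 53.8% of them. F31C3.14 was 1 of 4 genes that overlap ribosomal RNA, which together took 31.1% to 58.5% of the counts. The share of F31C3.14 was 28.4% to 46.1% on day 1 and 39.9% to 50.9% on day 7 at 21% O2. At 7% O2 it was 31.3% to 46.2% on day 1 and 43.8% to 53.8% on day 7. Levels below are CPM, counts scaled to the TMM library size of each library. The RNAi target mex-3 was at 76.7, 30.6, 69.3 and 159 CPM on day 1 and 14.5, 12.9, 14.5 and 9.81 CPM on day 7 at 21% O2, and at 53.9, 19.8, 101 and 153 CPM on day 1 and 3.40, 16.96, 6.56 and 11.02 CPM on day 7 at 7% O2. Its counts checked no label, since all groups received the RNAi. Its age change did not differ detectably between O2 levels (interaction 0.41 ± 0.87, adjusted p = 0.867). The libraries numbered 2 of day 1 stood apart together at both O2 levels: at 7% O2 replicate 2 had a summed level of 7 epidermis markers of 38.3 CPM against 127 to 286 in the other 3, and of 6 body wall muscle markers of 3134 CPM against 4534 to 8049. Replicate 4 of day 7 at 21% O2 had the lowest muscle and pharynx marker sums of the 16 libraries, 729.9 and 55.0 CPM. Counts of calls without these libraries are given beside the results.

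Age changes that differed between the O2 levels were found for 23 genes, 19 of which dropped more or climbed less at 21% O2, an imbalance that was not seen with limma-voom or without 1 of the libraries. Of 10894 genes tested, 4 had a higher and 19 a lower interaction at an adjusted p under 0.1 and a difference of at least 1.5-fold (quasi-likelihood F test of edgeR, p-values adjusted by Benjamini-Hochberg), which was 0.0367% and 0.174% of the genes. With age alone, 863 genes (7.92%) rose and 1171 (10.7%) fell at 21% O2, 18.7% in either direction, and 816 (7.49%) rose and 911 (8.36%) fell at 7% O2, 15.9% in either direction. Among the 828 genes that changed in 1 direction at both O2 levels, 426 had the larger change at 21%. The interaction had a median over all genes of -0.01 on the log2 scale, and 1406 genes had an unadjusted p under 0.05, 742 lower (6.81%) and 664 higher (6.1%). For 42.7% of the genes the interaction was 1.5-fold or more in size, and the biological coefficient of variation, the relative spread between replicates, was 0.418.

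**Figure D1:**
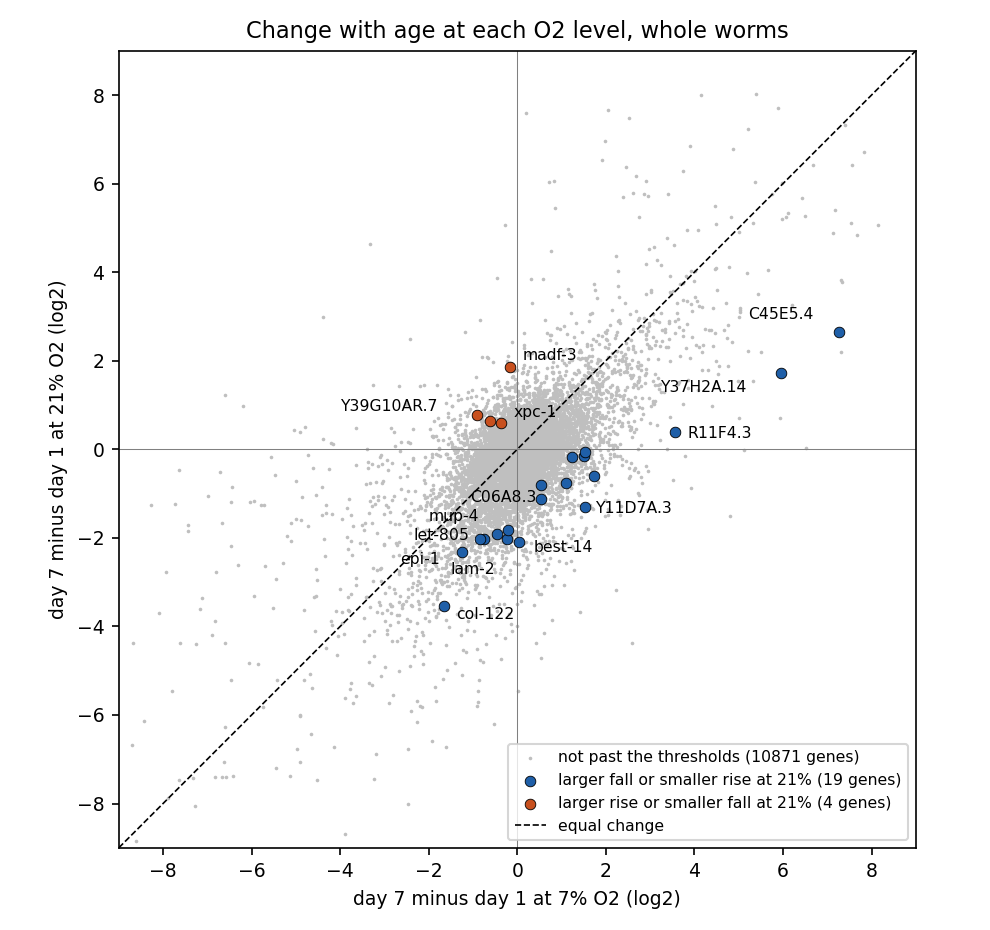
Log2 change from day 1 to day 7 at 7% O2 (horizontal) and at 21% O2 (vertical), with 1 point per gene for the 10894 genes tested, except 5 genes outside the axes. Blue points are the 19 genes with a lower and orange points the 4 genes with a higher interaction; the blue points lie below the dashed line of equal change and the orange points above it.

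The number of called genes depended on single libraries. It was 395 without replicate 1 of day 1 at 21% O2, 133 without replicate 2 of day 1 at 7% O2, 49 without replicate 1 of that group, 48 without replicate 1 of day 7 at 21% O2 and 27 without replicate 4 of day 7 at 7% O2. It was between 1 and 15 with any 1 of the other 11 libraries left out, and it was 1 without replicate 3 or 4 of day 1 at 21% O2, replicate 4 of day 1 at 7% O2 or replicate 3 of day 7 at 7% O2. Without both day 1 libraries numbered 2, a setting chosen after seeing the data, 65 genes were called, and 82 when replicate 4 of day 7 at 21% O2 was left out as well; 20 of the 23 genes were among them in both cases. All 23 genes kept the direction of their interaction with each of the 16 libraries left out, and 1 gene, Y11D7A.3, stayed past the thresholds each time. The 23 genes were chosen from the same libraries, so the kept direction is no separate evidence. With DESeq2, the tool of the study's methods, 73 genes (0.67%) were higher and 225 (2.07%) lower, with all 23 among them. The excess of lower calls was not found in every setting: limma-voom called 406 genes higher (3.73%) and 401 lower (3.68%), and without replicate 1 of day 1 at 21% O2 edgeR called 223 higher and 172 lower.

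**Figure D2:**
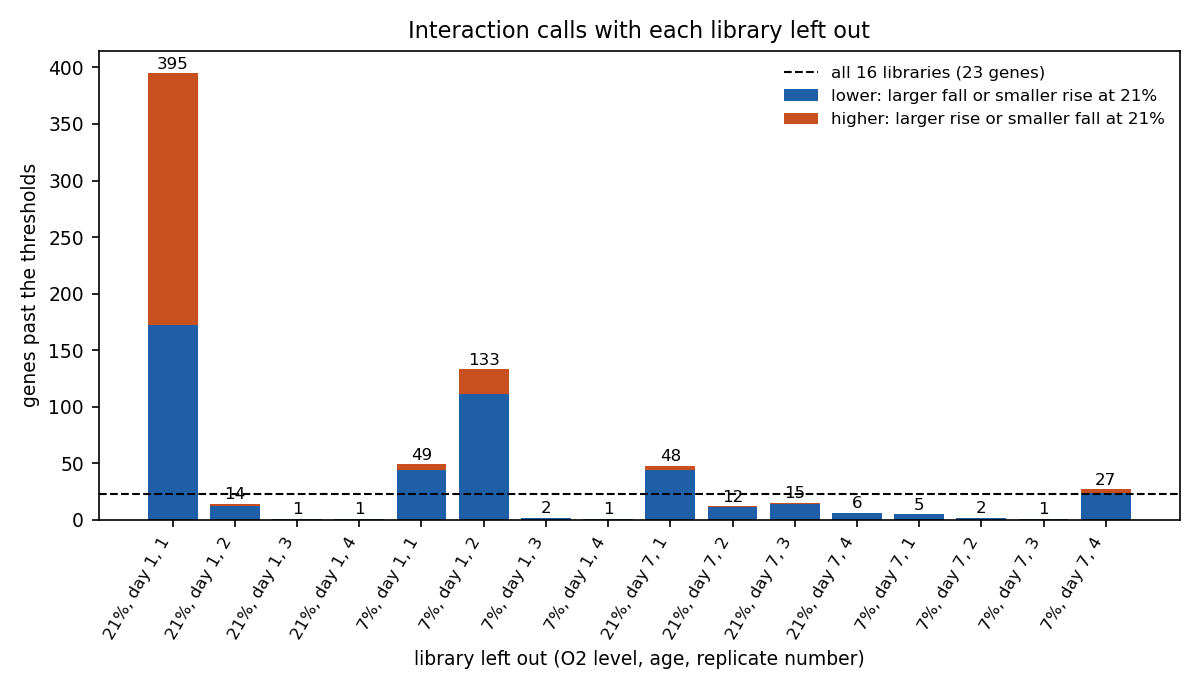
Number of genes past the thresholds of the age by O2 interaction (vertical, split into lower in blue and higher in orange) with each library left out in turn (horizontal). The dashed line marks the 23 genes of all 16 libraries; the bars run from 1 to 395 genes.

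Of the 19 lower genes, 7 had age changes below 0 at both O2 levels, 9 had a change below 0 at 21% O2 and above 0 at 7% O2, and 3 had changes above 0 at both. The 4 higher genes all had a change above 0 at 21% O2 and below 0 at 7% O2. The age change itself passed the thresholds at both O2 levels for 10 of the 23 genes, at 21% alone for 8 and at 7% alone for 5.

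The laminin genes epi-1 and lam-2, which encode the alpha and the gamma chain of a basement membrane laminin, fell with age at both O2 levels and fell further at 21% O2. On day 1, epi-1 (chromosome IV, 10666823 to 10679291) was at 834, 1028, 884 and 1034 CPM at 21% O2 and at 533, 583, 560.4 and 529 CPM at 7% O2. On day 7 it was at 217, 232, 188 and 126 CPM at 21% O2 and at 269, 255, 192 and 218 CPM at 7% O2. The 4 libraries of 21% O2 were all above those of 7% O2 on day 1, whereas on day 7 the groups overlapped. The age change was -2.31 ± 0.17 at 21% O2 and -1.24 ± 0.16 at 7% O2, and the difference between them was -1.07 ± 0.23 (adjusted p = 0.0968). The pattern of lam-2 (chromosome X, 7143846 to 7151239) was the same: 257, 337, 314 and 330.4 CPM at 21% O2 and 159, 207, 156 and 152 CPM at 7% O2 on day 1, and 87.8, 92.7, 50.8 and 73.0 CPM and 114, 103.998, 74.0 and 82.7 CPM on day 7. Day 1 levels at 21% O2 again lay above all those at 7% O2, and day 7 levels overlapped. Its age change was -2.02 ± 0.18 against -0.85 ± 0.18, with an interaction of -1.18 ± 0.25 (adjusted p = 0.0968).

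Both let-805 and mup-4, which encode transmembrane proteins of the fibrous organelles (myotactin and a matrix-receptor-like protein), fell with age at 21% O2. let-805 (chromosome III, 2658083 to 2681112) was at 439, 419.7, 311 and 359 CPM on day 1 and 110.2, 132, 94.7 and 70.7 CPM on day 7 at 21% O2, and at 263, 199, 162 and 149 CPM on day 1 and 185, 109, 153 and 117 CPM on day 7 at 7% O2. The ages did not overlap at 21% O2 and overlapped at 7% O2. It changed by -1.91 ± 0.21 with age at 21% O2, while the change of -0.46 ± 0.21 at 7% O2 did not pass (adjusted p = 0.165), and the interaction was -1.45 ± 0.29 (adjusted p = 0.0968). mup-4 (chromosome III, 7479680 to 7489105) was at 289, 236.027, 268 and 284 CPM on day 1 and 87.6, 106, 72.0 and 41.0 CPM on day 7 at 21% O2, and at 188, 79.6, 115 and 127 CPM on day 1 and 131, 89.1, 125 and 92.3 CPM on day 7 at 7% O2. Ages were separate at 21% O2 and overlapped at 7% O2, where replicate 2 of day 1 was the lowest. The changes were -1.81 ± 0.25 and -0.22 ± 0.25, and the interaction was -1.60 ± 0.35 (adjusted p = 0.0984).

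**Figure D3:**
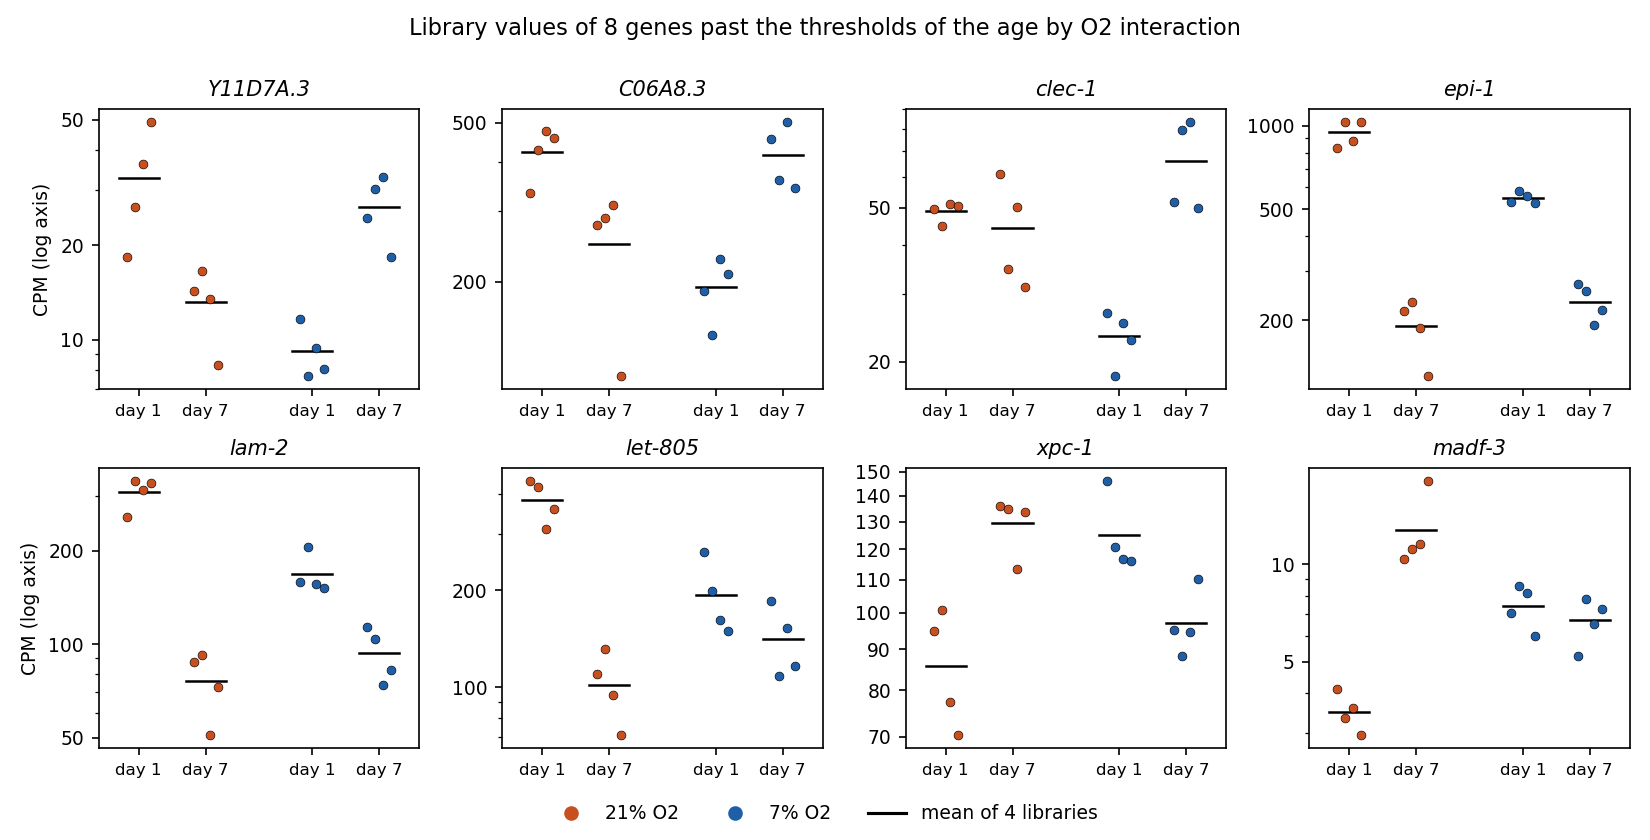
CPM (log axis) of 8 of the 23 called genes in each library, on day 1 and day 7 at 21% O2 (orange) and 7% O2 (blue), with black lines at the mean of 4 libraries. In epi-1, lam-2 and let-805 the 2 O2 levels were apart on day 1 and overlapped on day 7; in Y11D7A.3, C06A8.3 and xpc-1 their order on day 1 was turned round on day 7.

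The cuticle collagen gene col-122 (chromosome IV, 9563379 to 9564441) fell at both O2 levels and further at 21%. It was at 314, 241, 389.6 and 389 CPM on day 1 and 30.6, 34.9, 28.7 and 20.3 CPM on day 7 at 21% O2, and at 264, 67.6, 182 and 155 CPM on day 1 and 53.3, 44.1, 57.8 and 55.8 CPM on day 7 at 7% O2. Day 1 levels of the O2 groups overlapped, and on day 7 all 4 libraries at 21% O2 were below those at 7%. The interaction was -1.88 ± 0.40 (adjusted p = 0.0984), from -3.54 ± 0.31 at 21% O2 and -1.66 ± 0.29 at 7% O2. cpn-3, a calponin-family gene (chromosome I, 3987940 to 3988699), was at 108.4, 113, 164 and 138 CPM and then 33.9, 37.8, 31.9 and 24.1 CPM at 21% O2, and at 74.7, 48.0, 93.8 and 89.5 and then 42.3, 43.7, 44.5 and 50.2 CPM at 7% O2. It fell at both O2 levels, by 2.04 and 0.76 on the log2 scale, and its O2 groups were separate at both ages, with 21% O2 higher on day 1 and lower on day 7 (interaction -1.28 ± 0.28, adjusted p = 0.0968). For pak-1 (chromosome X, 6044308 to 6048608), a p21-activated kinase that acts in the epidermis of embryos, levels were 76.7, 102, 74.8 and 94.8 CPM on day 1 and 48.2, 43.6, 60.5 and 47.2 CPM on day 7 at 21% O2, and 40.0, 68.1, 38.5 and 47.9 CPM on day 1 and 92.8, 68.7, 67.3 and 51.6 CPM on day 7 at 7% O2. It fell at 21% O2 (-0.80 ± 0.20) and was 0.53 ± 0.20 at 7% O2, where the ages overlapped and the change was under the 1.5-fold minimum (interaction -1.33 ± 0.28, adjusted p = 0.0968).

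A second set of called genes rose with age at 7% O2 and did not pass the thresholds at 21% O2. ilys-5, an invertebrate-type lysozyme gene (chromosome X, 6533490 to 6536840), was at 77.6, 99.4, 106 and 75.2 CPM on day 1 and 63.1, 81.9, 81.0 and 90.5 CPM on day 7 at 21% O2, and at 106, 66.1, 104.2 and 65.3 CPM on day 1 and 161, 166, 263 and 216 CPM on day 7 at 7% O2. All 4 libraries of day 7 at 7% O2 were above the other 12. The age change was 1.24 ± 0.20 at 7% O2 and -0.18 ± 0.20 at 21% O2 (interaction -1.42 ± 0.28, adjusted p = 0.0968). clec-1, a C-type lectin gene (chromosome V, 5700154 to 5701080), was at 49.7, 44.9, 51.05 and 50.5 CPM on day 1 and 61.1, 34.7, 50.2 and 31.2 CPM on day 7 at 21% O2, and at 26.8, 18.3, 25.1024 and 22.8 CPM on day 1 and 51.7, 79.7, 83.7 and 50.1 CPM on day 7 at 7% O2. Day 1 at 7% O2 was the lowest group, below all other libraries. Its interaction was -1.66 ± 0.31 (adjusted p = 0.0707), from -0.15 ± 0.22 at 21% O2 and 1.51 ± 0.22 at 7% O2.

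Also in this set was tdo-2 (chromosome III, 5917628 to 5919955), the tryptophan dioxygenase gene of the kynurenine pathway, at 47.1, 45.8, 45.6 and 54.1 CPM on day 1 and 52.1, 51.04, 52.3 and 29.04 CPM on day 7 at 21% O2, and at 23.6, 19.3, 20.3 and 29.5 CPM on day 1 and 69.1, 76.4, 87.8 and 32.8 CPM on day 7 at 7% O2. Day 1 levels at 7% O2 lay below those of all other libraries except replicate 4 of day 7 at 21% O2, and day 7 levels at 7% O2 were the highest except in replicate 4. Its change was 1.52 ± 0.25 at 7% O2 and -0.06 ± 0.24 at 21% O2, and the interaction -1.58 ± 0.35 (adjusted p = 0.0984). T04F8.8 (chromosome X, 11647465 to 11648196), a protein-coding gene with a sequence name alone, was at 32.3, 27.7, 58.6 and 45.7 CPM on day 1 and 23.3, 31.4, 38.6 and 15.3 CPM on day 7 at 21% O2, and at 21.2, 9.65, 15.2 and 16.9 CPM on day 1 and 44.1, 51.9, 75.9 and 35.8 CPM on day 7 at 7% O2. The ages overlapped at 21% O2 and were separate at 7% O2 (interaction -2.32 ± 0.43, adjusted p = 0.0707). R11F4.3 was at 15.03, 3.28, 8.27 and 8.98 CPM on day 1 and 13.4, 11.4, 15.6 and 6.18 CPM on day 7 at 21% O2 and at 2.01, 2.06, 1.78 and 1.62 CPM on day 1 and 32.9, 30.8, 17.6 and 8.09 CPM on day 7 at 7% O2, with day 1 at 7% O2 below every other library (interaction -3.18 ± 0.64, adjusted p = 0.0968). Its identifier has no entry in the Ensembl 115 annotation used for positions.

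Genes that fell with age at 21% O2 alone included a transporter, a channel-family gene and a protease. glt-1, a glutamate transporter gene (chromosome X, 3496026 to 3499169), was at 83.9, 58.5, 90.6 and 113 CPM on day 1 and 48.2, 38.97, 47.9 and 23.3 CPM on day 7 at 21% O2, and at 69.7, 30.8, 43.2 and 43.0 CPM on day 1 and 63.9965, 81.6, 68.3 and 57.7 CPM on day 7 at 7% O2. Ages were separate at 21% O2 and overlapped at 7% O2, and the interaction was -1.67 ± 0.35 (adjusted p = 0.0968). best-14, of the bestrophin family of chloride channels (chromosome V, 10557976 to 10560788), was at 20.5, 16.6, 26.01 and 29.6 CPM on day 1 and 5.02, 5.83, 7.496 and 3.50 CPM on day 7 at 21% O2 and at 18.3, 9.97, 9.68 and 10.5 CPM on day 1 and 13.96, 12.5, 14.8 and 8.23 CPM on day 7 at 7% O2. Day 7 at 21% O2 was the lowest group, below all other libraries, with an age change of -2.08 ± 0.32 against 0.03 ± 0.31 (interaction -2.11 ± 0.44, adjusted p = 0.0968). The same group was lowest for asp-13, an aspartyl protease gene (chromosome V, 8641602 to 8643193), at 16.5, 28.97, 15.02 and 19.9 and then 6.45, 5.30, 3.75 and 4.17 CPM at 21% O2 and 18.2, 11.9, 13.8 and 11.2 and then 11.2, 10.9, 13.3 and 11.4 CPM at 7% O2. Its interaction was -1.80 ± 0.40 (adjusted p = 0.0984).

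The smallest adjusted p belonged to Y11D7A.3 (chromosome IV, 9233091 to 9241387), a protein-coding gene with a sequence name alone. It was at 18.4, 26.4, 36.2 and 49.4 CPM on day 1 and 14.3, 16.6, 13.5 and 8.34 CPM on day 7 at 21% O2, and at 11.7, 7.66, 9.43 and 8.10 CPM on day 1 and 24.4, 30.2, 32.8 and 18.3 CPM on day 7 at 7% O2. It fell with age at 21% O2 and rose at 7% O2, with no overlap of the ages at either O2 level or of the O2 levels at either age. The change was -1.30 ± 0.30 at 21% O2 and 1.52 ± 0.30 at 7% O2, and the interaction -2.82 ± 0.42 (adjusted p = 0.0142). C06A8.3, which Ensembl 115 names srlf-1 (chromosome II, 7790591 to 7791375), showed the same crossing: 334, 428, 476 and 457 CPM on day 1 and 278, 288, 312 and 116 CPM on day 7 at 21% O2, against 189, 147, 228 and 209 CPM on day 1 and 456, 359.8, 504 and 344 CPM on day 7 at 7% O2. It fell by 0.77 at 21% O2 and rose by 1.10 ± 0.23 at 7% O2 on the log2 scale, and the groups were separate in all 4 comparisons. Its interaction was -1.88 ± 0.33 (adjusted p = 0.0607), and it was past the thresholds in 12 of the 16 fits with 1 library left out.

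C45E5.4, named cpg-18 in Ensembl 115 (chromosome IV, 5735020 to 5737106), and Y37H2A.14 (chromosome V, 18143745 to 18144720) rose with age at both O2 levels from low levels. C45E5.4 was at 2.26, 0.568, 0.871 and 1.53 CPM on day 1 and 5.73, 15.9, 6.19 and 5.51 CPM on day 7 at 21% O2, and at 0.118, 0, 0 and 0.116 CPM on day 1 and 10.9, 4.43, 8.41 and 15.9 CPM on day 7 at 7% O2. Y37H2A.14 was at 0.812, 1.199, 2.39 and 2.24 CPM on day 1 and 3.23, 8.22, 6.03 and 4.17 CPM on day 7 at 21% O2 and at 0, 0.1246, 0.255 and 0 CPM on day 1 and 4.99, 7.97, 9.23 and 5.16 CPM on day 7 at 7% O2. Day 7 levels overlapped between O2 levels in both genes, and day 1 levels were lower at 7% O2, with no count in 2 of the 4 libraries. Adjusted p-values of the interaction were 0.0968 and 0.0968; the fitted size of the change at 7% O2 depends on the prior count and is not given.

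The 4 genes with a higher interaction were xpc-1, madf-3, cas-2 and Y39G10AR.7. None of them passed when the 4 genes overlapping ribosomal RNA were left out. xpc-1, the homologue of the XPC gene of nucleotide excision repair (chromosome IV, 1993089 to 2009027), was at 95.0, 101, 77.4 and 70.3 CPM on day 1 and 136, 135, 113 and 134 CPM on day 7 at 21% O2, and at 146, 121, 117 and 116 CPM on day 1 and 95.1, 88.2, 94.6 and 110.2 CPM on day 7 at 7% O2. It rose at 21% O2 (0.59 ± 0.14) and was -0.37 ± 0.14 at 7% O2, under the 1.5-fold minimum, and the O2 groups were separate at both ages in opposite order (interaction 0.96 ± 0.20, adjusted p = 0.0968). madf-3, a gene with a MADF DNA-binding domain (chromosome II, 4334748 to 4339038), was at 4.12, 3.35, 3.59 and 2.96 CPM and then 10.4, 11.1, 11.6 and 18.2 CPM at 21% O2, and at 7.08, 8.60, 8.16 and 6.01 and then 5.22, 7.82, 6.56 and 7.25 CPM at 7% O2. All 4 libraries of day 7 at 21% O2 were above the other 12 and all 4 of day 1 at 21% O2 below them. The interaction was 2.02 ± 0.44 (adjusted p = 0.0968), from 1.87 ± 0.32 at 21% O2 and -0.16 ± 0.31 at 7% O2.

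Both remaining genes rose at 21% O2 and fell at 7% O2. cas-2, a cyclase-associated protein gene whose family binds actin (chromosome I, 4190158 to 4193129), was at 26.3, 23.3, 33.96 and 26.5 CPM on day 1 and 31.9, 47.7, 33.6 and 58.6 CPM on day 7 at 21% O2, and at 46.6, 43.3, 44.3 and 51.6 CPM on day 1 and 28.6, 35.3, 30.8 and 25.8 CPM on day 7 at 7% O2. The ages overlapped at 21% O2 and were separate at 7% O2 (interaction 1.27 ± 0.28, adjusted p = 0.0984). Y39G10AR.7, named ekl-7 in Ensembl 115 (chromosome I, 2316307 to 2318305), was at 22.1, 12.63, 15.02 and 10.3029 CPM on day 1 and 27.2, 22.4, 22.5 and 30.3 CPM on day 7 at 21% O2 and at 31.5, 21.9, 35.4 and 35.7 CPM on day 1 and 19.6, 15.05, 19.7 and 12.1 CPM on day 7 at 7% O2, with separate ages at both O2 levels (interaction 1.67 ± 0.36, adjusted p = 0.0968). A further 8 genes with the next smallest p in this direction had adjusted p-values of 0.103 to 0.117 and did not pass. They were mcm-2, a subunit of the replicative helicase (0.91 ± 0.20), puf-8, a germline RNA-binding protein of the Pumilio family (0.83 ± 0.20), the TAO-family kinase gene kin-18 (0.68 ± 0.16), the formin gene inft-2 (0.98 ± 0.23), Y54E2A.8 (1.41 ± 0.33), F59A3.2 (1.04 ± 0.25), F55G1.6 (1.41 ± 0.34) and T08B2.5, named rbm-5 in Ensembl 115 (0.87 ± 0.22).

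The interaction equals the O2 difference on day 7 minus that on day 1. Genes chosen by it therefore tend to differ in opposite directions at the 2 ages. Read at each age, the 19 lower genes were all higher at 21% than at 7% O2 on day 1, and all lower at 21% O2 on day 7, with log2 differences of -1.35 to -0.25 and a median of -0.58. On day 1 the difference was 0.07 to 2.24 with a median of 0.98 for 17 of the 19, and it is given no size for C45E5.4 and Y37H2A.14, which had libraries at 0 on day 1 at 7% O2. The 4 higher genes had differences of -1.09 to -0.54 on day 1 and of 0.42 to 0.93 on day 7. The O2 difference at a single age passed the thresholds for 1 gene of all tested on day 1 (0.00918%), Y11D7A.3 (1.82 ± 0.30, adjusted p = 0.0566), and for 6 genes on day 7 (0.0551%), of which ilys-5 was among the 23 (-1.35 ± 0.20, adjusted p = 0.0108). In edgeR the other 21 of the 23 genes passed at neither age. These counts depended on the tool. With DESeq2, the tool of the study's methods, the O2 difference passed for 216 of 10894 genes on day 1 and for 39 on day 7.

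The group members below are counted over lists of genes, with no test of a list. Over all genes tested, 10.7% fell and 7.92% rose with age at 21% O2, 8.36% fell and 7.49% rose at 7% O2, and 6.81% had a lower and 6.1% a higher interaction at an unadjusted p under 0.05. The laminin and fibrous-organelle genes led to a list of 14 basement membrane genes and a list of 18 genes of muscle and epidermal attachment, both written after the values had been seen. The called genes epi-1 and lam-2 are members of the first list, and let-805 and mup-4 of the second. The counts of these lists are therefore no separate evidence. All 14 basement membrane genes had an interaction below 0, with a median of -1.06 against -0.01 over all genes; 2 passed the thresholds and 8 had an unadjusted p under 0.05, where 6.81% of all genes did in this direction. Their summed level was 4550, 4701, 4320 and 4827 CPM on day 1 and 1515, 1460, 1311 and 791 CPM on day 7 at 21% O2, and 3478, 2832, 2844 and 2570 CPM on day 1 and 2042, 1706, 1475 and 1457 CPM on day 7 at 7% O2. The sum on day 7 was 0.276 of the day 1 sum at 21% O2 and 0.570 at 7% O2, and 11 of the genes fell with age at 21% O2 against 8 at 7% O2. Interactions that did not pass were -1.05 ± 0.25 for lam-1, the laminin beta chain, -1.05 ± 0.31 and -1.01 ± 0.31 for the type IV collagen genes emb-9 and let-2, -1.58 ± 0.40 for unc-52 (perlecan) and -1.22 ± 0.51 for nid-1 (nidogen), with adjusted p-values from 0.103 to 0.342.

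The 18 attachment genes all had an interaction below 0 as well, with a median of -1.08; 2 passed the thresholds and 14 had an unadjusted p under 0.05. With age, 16 fell at 21% O2 and 5 at 7% O2, and the summed level on day 7 was 0.428 and 0.792 of that on day 1. Values that did not pass were -1.18 ± 0.28 for tln-1 (talin), -1.30 ± 0.30 for unc-97 (PINCH), -1.14 ± 0.30 for unc-112 (kindlin), -1.16 ± 0.31 for deb-1 (vinculin) and -1.42 ± 0.36 for mua-3, with adjusted p-values of 0.103 to 0.14. The integrin genes pat-3 (-0.37 ± 0.18) and ina-1 (-0.33 ± 0.24) lay nearest to 0. Not all integrin genes did so. Levels of pat-2 were 73.2 to 144 CPM on day 1 and 22.5 to 44.6 CPM on day 7 at 21% O2. At 7% O2 they were 59.3 to 95.1 CPM on day 1 and 42.4 to 46.2 CPM on day 7, and its interaction did not pass. Under DESeq2, 7 of the 14 and 11 of the 18 genes were called lower, against 2.07% of all genes. The genes that led to the lists, epi-1, lam-2, let-805 and mup-4, are among them.

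Among the 26 muscle sarcomere genes, 25 had an interaction below 0 and none passed the thresholds; the median was -0.87, 17 genes had an unadjusted p under 0.05, and DESeq2 and limma-voom each called 8 lower, against 2.07% and 3.68% of all genes. The summed level was 20778, 15209, 20527 and 19907 CPM on day 1 and 6098, 4819, 5392 and 3091 CPM on day 7 at 21% O2, and 20613, 9878, 15176 and 13555 CPM on day 1 and 7434, 6848, 6151 and 6061 CPM on day 7 at 7% O2, with 23 genes falling with age at 21% O2 and 19 at 7% O2. The troponin C gene pat-10 was at 255, 271, 509 and 466 CPM and then 76.7, 55.9, 67.6 and 32.7 CPM at 21% O2, and at 258, 169, 321 and 262 and then 114, 126, 123.1 and 99.4 CPM at 7% O2. It fell at both O2 levels, with day 7 levels at 21% O2 below all others (interaction -1.56 ± 0.36, adjusted p = 0.103). The myosin light chain gene mlc-3 had an interaction of -1.20 ± 0.28 (adjusted p = 0.103). Without replicate 4 of day 7 at 21% O2 the median of the list was -0.66, and without it and both day 1 libraries numbered 2 it was -0.63.

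**Figure D4:**
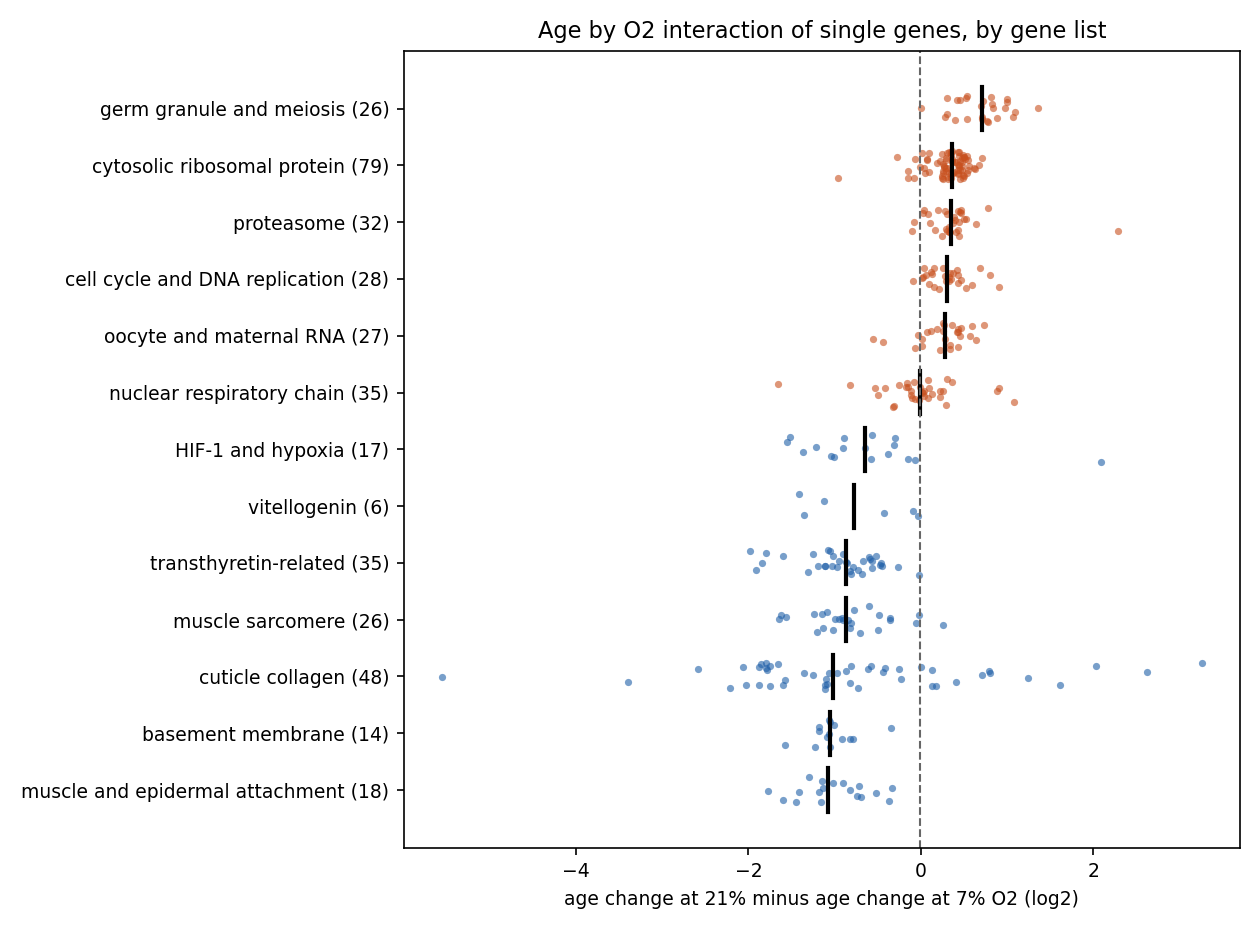
Interaction of each tested gene (horizontal, log2) in 13 gene lists, with the number of tested genes in parentheses and a black bar at the median of each list. The basement membrane and the muscle and epidermal attachment lists were written after the values were seen. Blue lists have a median below and orange lists a median above that of all genes (dashed line, -0.01); the medians run from -1.08 for muscle and epidermal attachment to 0.71 for germ granule and meiosis genes.

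Lists of secreted and epidermal proteins also had medians below 0. For 48 tested cuticle collagen genes the median was -1.02, with 35 below 0, and col-122 was the 1 that passed; 33 fell with age at 21% O2 and 29 at 7% O2. All 35 transthyretin-related genes were below 0 (median -0.87), and none passed: 11 rose with age at 21% O2 and 18 at 7% O2, and their summed level on day 7 was 1.30 and 2.48 times that on day 1. The median was -0.90 for 35 hedgehog-related and patched-related genes, -0.86 for 30 antimicrobial peptide genes and -0.58 for 21 innexin genes, with no call in any of them. Of 7 lysozyme genes 6 were below 0 (median -1.02), and of 59 C-type lectin genes 39 (-0.39), with 1 call in each list. All 6 vitellogenin genes, which encode yolk proteins, were below 0 (median -0.78); vit-3 was at 1618, 1315, 1057 and 1320 CPM on day 1 and 437, 253, 367 and 235 CPM on day 7 at 21% O2, and at 2389, 1118, 1443 and 949.9 CPM on day 1 and 1007, 741, 1158 and 768 CPM on day 7 at 7% O2, and fell at both O2 levels (interaction -1.36 ± 0.36, adjusted p = 0.14). The gene vit-3 has near-identical copies, vit-4 (-1.41 ± 0.43) among them. The authors' counting set a minimum alignment quality, so reads that match several copies may be missing from its count. In the other lists of this kind with no call, the smallest p-values belonged to ttr-15 (-1.11 ± 0.30) and ttr-33 (-1.79 ± 0.51), grl-4 (-4.01 ± 1.00) and ptr-14 (-2.57 ± 0.65), fipr-21 (-1.95 ± 0.57) and spp-10 (-0.85 ± 0.27), and the gap junction genes inx-5 (-1.87 ± 0.45) and inx-13 (-1.27 ± 0.34), with adjusted p-values of 0.107 to 0.213. The level of grl-4 on day 7 at 21% O2 was 0.134 to 0.896 CPM, so its size is uncertain.

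Several lists of stress and metabolic genes also had medians below 0, while that of heat shock and chaperone genes, given below, was above 0. Of 17 genes of HIF-1 and hypoxia, 16 were below 0 (median -0.64) and none passed; 5 fell with age at 21% O2 and none at 7% O2. The cysteine synthase-like gene cysl-2, of the H2S and hypoxia pathway, was at 37.7, 23.8, 73.1 and 62.0 CPM on day 1 and 15.4, 13.3, 25.0952 and 6.86 CPM on day 7 at 21% O2, and at 19.3, 19.9, 15.9 and 18.04 CPM on day 1 and 14.5, 15.8, 15.6 and 18.6 CPM on day 7 at 7% O2. Its levels on day 1 at 21% O2 lay above all those on day 1 at 7% O2, and on day 7 the groups overlapped (interaction -1.51 ± 0.46, adjusted p = 0.206). The median was -0.997 for 49 UDP-glucuronosyltransferase genes, -0.87 for 23 glutathione S-transferase genes, -0.40 for 51 cytochrome P450 genes, -0.08 for 27 genes of superoxide, peroxide and thioredoxin defence and -0.09 for 68 genes of fatty acid and lipid metabolism, with no call. In the last list fat-5, a fatty acid desaturase gene, was at 6.27, 2.08, 6.204 and 7.65 CPM on day 1 and 27.4, 19.2, 30.5 and 4.57 CPM on day 7 at 21% O2, and at 1.18, 1.25, 0.765 and 0.463 CPM on day 1 and 30.5, 31.6, 19.7 and 21.5 CPM on day 7 at 7% O2, with day 1 at 7% O2 the lowest (interaction -2.88 ± 0.68, adjusted p = 0.103). Of 40 cathepsin-type protease and V-ATPase genes 31 were below 0 (median -0.38), and asp-13 alone passed. The sulfide oxidation gene sqrd-1 had -1.22 ± 0.45, the fatty acid synthase gene fasn-1 -0.89 ± 0.24, gst-42 -1.48 ± 0.49, gst-24 -2.39 ± 0.92, ugt-41 -1.90 ± 0.51, ugt-53 -5.08 ± 1.32, cyp-29A2 -1.71 ± 0.61, cyp-34A8 -1.71 ± 0.61 and the glutathione peroxidase gene gpx-5 -1.19 ± 0.69, with adjusted p-values of 0.126 to 0.467. The value of ugt-53 rests on levels of 0 to 0.265 CPM on day 7 at 21% O2, so its size depends on the prior count. No size is given for msra-1, a methionine sulfoxide reductase gene with 3 of 4 libraries of day 7 at 21% O2 at 0.

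The germline lists went the other way. All 26 genes of germ granules and meiosis had an interaction above 0, with a median of 0.71; none passed the thresholds, 15 had an unadjusted p under 0.05 where 6.1% of all genes did in this direction, and limma-voom called 16 and DESeq2 4, against 3.73% and 0.67% of all genes. With age, 8 of them rose at 21% O2 and none at 7% O2, where 5 fell. Their summed level was 6008, 3443, 3524 and 3196 CPM on day 1 and 4447, 4196, 4173 and 5308 CPM on day 7 at 21% O2, and 5724, 4303, 5620 and 6584 CPM on day 1 and 3957, 3890, 3598 and 4452 CPM on day 7 at 7% O2. him-3, a protein of the meiotic chromosome axis, was at 60.9, 32.9, 47.2 and 46.9 CPM and then 86.02, 63.8, 86.4 and 111 CPM at 21% O2, and at 86.1, 70.5, 72.2 and 94.5 and then 80.1, 81.7, 53.7 and 68.9 CPM at 7% O2. It rose with age at 21% O2, and its ages overlapped at 7% O2 (interaction 1.07 ± 0.28, adjusted p = 0.128). The synaptonemal complex gene syp-1, which shares 16.9% of its exonic length with F13A7.14, had an interaction of 1.09 ± 0.29 (adjusted p = 0.14).

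The median was 0.31 for 28 cell cycle and DNA replication genes (27 above 0) and 0.28 for 27 oocyte and maternal RNA genes (23 above 0), with no call. It was 1.41 for 16 tested sperm genes, most of which had few counts. Cytosolic ribosomal protein genes had 72 of 79 above 0 (median 0.36) and no call: 6 fell with age at 21% O2 and 47 at 7% O2. The median was 0.33 for 18 ribosome biogenesis genes and 0.35 for 32 proteasome genes, 30 of them above 0, and 0.24 for 53 heat shock and chaperone genes. The 35 nuclear genes of the respiratory chain had a median of -0.01, with 24 falling with age at each O2 level, and its sign changed in 4 of the 28 alternatives. The 12 genes of the mitochondrial genome had a median of -0.47, with 10 falling at 21% O2 and 8 at 7% O2. The genes with the smallest p in these lists did not pass: cyclin E (cye-1) had 0.69 ± 0.23, mex-1 0.74 ± 0.23, gld-1, a germline translation repressor, 0.64 ± 0.24, spe-5 2.54 ± 0.96, rps-9 0.55 ± 0.23, rpl-11.1 0.71 ± 0.30, rbd-1 0.48 ± 0.22, nol-5 0.56 ± 0.26, rpn-6.2 2.28 ± 0.57, pas-1 0.64 ± 0.26, the BiP chaperone gene hsp-3 -0.55 ± 0.17 and hsp-25 -0.98 ± 0.32. Among respiratory chain genes, nduf-2.2 had 1.08 ± 0.30, ucr-2.3 0.91 ± 0.29, nduo-3 -0.89 ± 0.47 and nduo-2 -0.73 ± 0.41. No size is given for the sperm gene msp-76, which was at 0 in 3 of 4 libraries of day 7 at 7% O2.

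Lists of peptide, neuronal and regulatory genes held no call. Medians were -0.63 for 51 FMRFamide-like and neuropeptide-like genes, -0.56 for 6 insulin-like peptide genes, -0.38 for 24 genes of synaptic release and -0.47 for 8 genes of O2-sensing neurons. They were -0.41 for 141 nuclear hormone receptor genes, -0.38 for 28 histone genes, 0.23 for F-box and MATH genes, -0.86 for 9 genes of embryos and hatching and -0.15 for 19 DAF-16 and lifespan targets, whose sign changed in 3 alternatives. Of the lists the study used, oxygen sensing (17 genes) had a median of -0.41, Ca2+ signalling (38) of -0.56, oxidative stress (41) of -0.23, delayed primary response (45) of -0.05 (above 0 without replicate 2 or 3 of day 7 at 21% O2) and translation (49) of 0.34, all with no call. Genes that fall with age in the MetaWorm list had a median of -0.50, with C06A8.3 the 1 called of 61, and those that rise had -0.07 with no call. The genes with the smallest p did not pass in these lists: nlp-29 had -2.30 ± 0.79, nlp-15 -1.08 ± 0.47, ins-30 -1.64 ± 1.14, daf-28 -0.94 ± 0.93, the synaptic genes rab-3 -1.20 ± 0.50 and unc-13 -0.83 ± 0.35, nhr-3 -1.28 ± 0.41, nhr-76 -2.05 ± 0.70, his-2 -1.32 ± 0.47, his-24 -1.32 ± 0.56, fbxa-193 3.63 ± 0.92, fbxa-107 1.35 ± 0.35, lin-26 0.67 ± 0.21, elt-1 -1.07 ± 0.48, dao-3 -1.13 ± 0.37 and gpd-2 -0.86 ± 0.36. In the study's lists these were the ryanodine receptor gene unc-68 (-0.89 ± 0.24), hif-1 (-0.56 ± 0.24), mlc-2 (-1.15 ± 0.28), pdi-2 (-0.69 ± 0.20), gar-3 (-2.46 ± 0.85), eef-1A.2 (-0.99 ± 0.26), Y47H9C.7 (1.11 ± 0.36), F16B4.4 (-2.43 ± 0.63) and ccg-1 (-1.12 ± 0.32). In the O2-sensing list gcy-36, a soluble guanylate cyclase gene, had -1.81 ± 0.95, and gcy-31 is given no size because 3 of 4 libraries of day 7 at 21% O2 were at 0.

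A ratio of summed marker levels on day 7 to those on day 1 was taken for each list. It was lower at 21% than at 7% O2 in every list except those of the germline and of sperm, where it was higher. The summed level of 6 body wall muscle markers on day 7 was 0.169 of that on day 1 at 21% O2 and 0.338 at 7% O2, that of 7 epidermis markers 0.0160 and 0.0698, and that of 6 pharynx markers 0.358 and 0.693. For 8 germline and oocyte markers the ratio was 1.30 at 21% O2 and 0.963 at 7% O2, and their sums were 4743, 3430, 3111 and 2924 CPM on day 1 and 4721, 4133, 4406 and 5277 CPM on day 7 at 21% O2 against 4855, 3650, 4233 and 4596 CPM on day 1 and 4623, 3863, 3914 and 4291 CPM on day 7 at 7% O2. Intestine markers had ratios of 0.998 and 1.07, markers of all neurons 0.903 and 1.18, and glia markers 0.721 and 1.36. Ratios were 0.359 and 0.589 for touch neurons, 1.29 and 1.91 for O2-sensing neurons, 0.587 and 2.16 for embryos and 0.468 and 0.512 for coelomocytes. Sperm markers had ratios of 0.535 and 0.161, from sums of 0 to 19.4 CPM. No marker gene passed the thresholds of the interaction, and none was at 0 in all 16 libraries. The part of such shifts in tissue RNA in the called genes and in the lists was not tested.

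**Figure D5:**
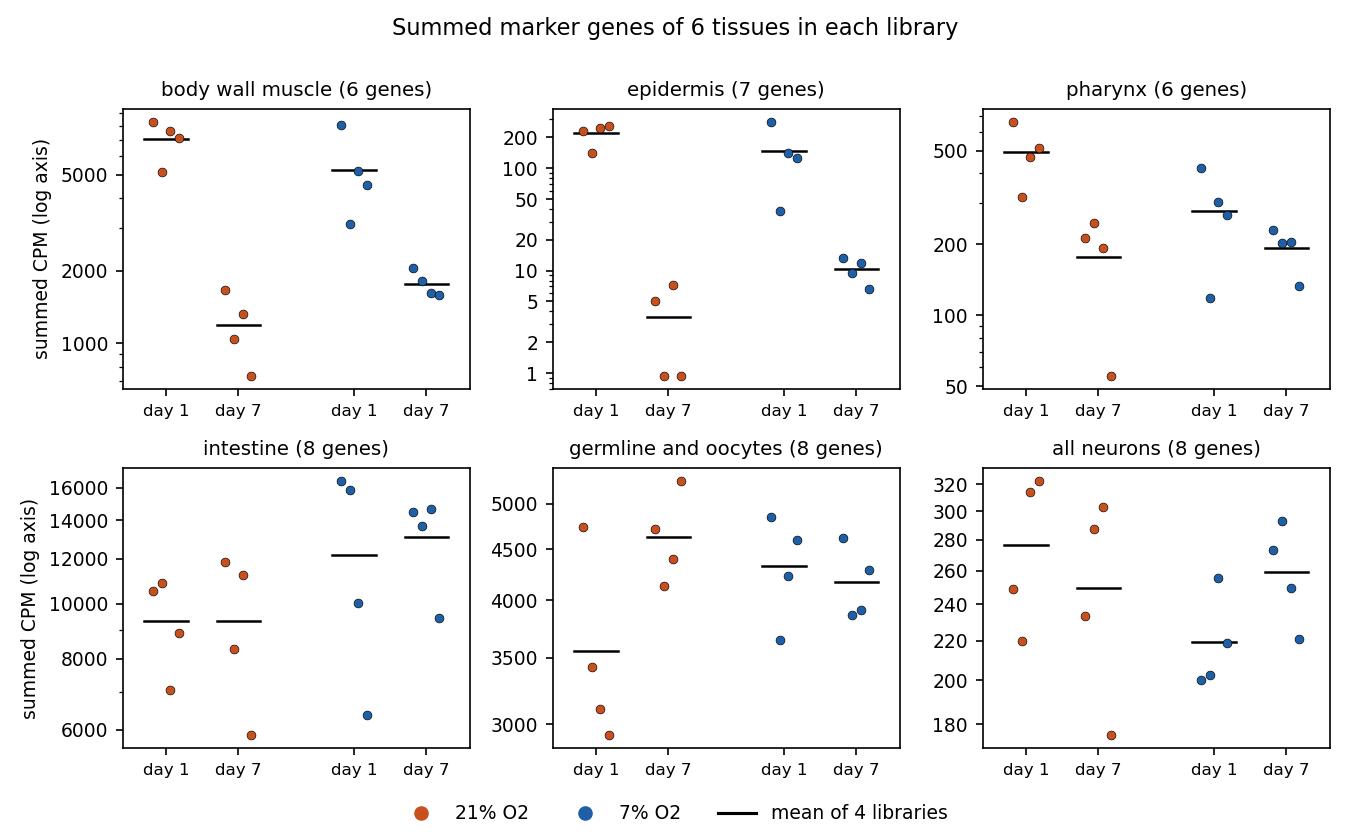
Summed CPM (log axis) of the marker genes of 6 tissues in each library, on day 1 and day 7 at 21% O2 (orange) and 7% O2 (blue), with black lines at the mean of 4 libraries. Muscle, epidermis and pharynx markers had lower means on day 7 at both O2 levels, with a smaller day 7 to day 1 ratio of means at 21% O2, and the germline mean was higher on day 7 at 21% O2 and lower at 7% O2. The ratio was also smaller at 21% O2 for intestine and all neurons.

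The same interaction was fitted in the sorted O2-sensing neurons of these animals, with 16 further libraries and a biological coefficient of variation of 1.02. There 7 of 11720 genes passed (0.0597%), 3 higher and 4 lower. All 23 whole-worm genes were tested in neurons: the 4 higher genes had values above 0, and of the 19 lower genes 14 had values below 0, with adjusted p-values of 0.554 to 1 in both sets together. The difference between whole worms and neurons did not pass for any of the 23 (adjusted p = 0.448 or more), so neither a shared nor a separate interaction was shown for them. In that fit of all 32 libraries the whole-worm interaction itself passed for none of the 23, so the test had little power. The study took the whole-worm aliquot from each dissociation that was sorted, and the fit did not pair them.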

How the data were processed

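Whole-worm RNA of 16 libraries was analysed, 4 of each of 4 groups taken from the sample labels. Per the study's methods and the submitters' processing notes, RNA was purified with PicoPure, amplified with Ovation RNA-seq V2 and made into TruSeq Nano libraries. The authors used Cutadapt 1.9 for trimming, STAR 2.5.2b for alignment to WBcel235 and featureCounts 1.5.1 for exon counts of fragments by gene, unstranded, after taking out ribosomal RNA genes. The deposited values are raw counts for 46726 genes. Amplification without molecular identifiers means that counts are not independent molecules, and without strand, overlapping genes cannot be told apart.

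In R 4.3.3, genes with enough counts (filterByExpr of edgeR 4.0.16, minimum count 10) were kept, libraries scaled by TMM, and the interaction, the age changes and the O2 differences tested, two-sided, with the robust quasi-likelihood F test over all 16 libraries, with Benjamini-Hochberg adjustment over all genes and thresholds of 0.1 for the adjusted p and 1.5 for the fold. Standard errors were obtained by dividing the size of a log2 change by the root of its F statistic. The neuron interaction used 16 neuron libraries, and its difference from whole worms all 32. The members, gene lists and tests were chosen with earlier results of these data known. Named genes are, in each direction, all called genes or the 12 with the smallest p, filled to 12 with genes of at least 1.5-fold, and, for each list, its called members or the 2 with the smallest p, together with mex-3; cpn-3, mup-4, tdo-2, C45E5.4 and Y37H2A.14, which the rule does not reach, and the genes of the 2 lists written afterwards were named after their values were seen. Positions are from Ensembl 115 on WBcel235.

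Alternatives were DESeq2 1.42.0, all 32 libraries in 1 fit, RLE size factors, no low-count filter, a minimum of 1 CPM throughout a group, a threshold of 0.05 for the adjusted p, no minimum fold, the replicate number as a block, limma-voom with quality weights (limma 3.58.1), leaving out the 4 genes that overlap ribosomal RNA, and leaving out each library. Leaving out both day 1 libraries numbered 2, alone or together with replicate 4 of day 7 at 21% O2, was added after seeing the data. The test was tested on simulated data.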

Additional observations from a re-analysis of the deposited data

Results flagged for a closer look

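The age change differed between 21% and 7% O2, by the test of the interaction, for the 23 genes of the report. On the log2 scale the difference was -2.82 for Y11D7A.3, -1.88 for C06A8.3, -2.32 for T04F8.8, -1.66 for clec-1, -1.42 for ilys-5, -3.18 for R11F4.3, -1.45 for let-805, -2.11 for best-14, -1.67 for glt-1, -1.07 for epi-1, -1.33 for pak-1, -1.18 for lam-2, -1.88 for col-122, -1.80 for asp-13, -1.28 for cpn-3, -1.60 for mup-4 and -1.58 for tdo-2. It was -4.62 for C45E5.4 and -4.24 for Y37H2A.14, fitted values that depend on the prior count. It was 0.96 for xpc-1, 1.67 for Y39G10AR.7, 2.02 for madf-3 and 1.27 for cas-2.

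In 148 groups of 4 libraries, 9 held a library far from the other 3 by Dixon's test at 95%, where chance gives about 1 in 20 groups, or 7.4. On day 1 at 7% O2, replicate 1 was high for xpc-1 (146.3 CPM) and best-14 (18.3 CPM), replicate 2 was high for lam-2 (206.5 CPM) and for the summed embryo markers (27.2 CPM), and replicate 4 was high for the summed glia markers (42.0 CPM). On day 7 at 21% O2, replicate 3 was low for xpc-1 (113.4 CPM), replicate 4 was high for madf-3 (18.2 CPM) and low for tdo-2 (29.04 CPM), and replicate 2 was high for C45E5.4 (15.9 CPM).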

How the results depend on the processing

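The 23 interaction calls became 298 with DESeq2, 44 with RLE size factors, 342 with no low-count filter, 63 with at least 1 CPM in every library of a group, 807 with limma-voom, 11 without the genes overlapping ribosomal RNA, 1 at an adjusted p under 0.05, and 0 with all 32 libraries in edgeR (383 at an unadjusted p under 0.05); leaving out 1 library gave 1 to 395, and the 2 settings added afterwards 65 and 82. The 11 genes called without the ribosomal overlaps were all lower. All 23 genes kept their direction in the 28 alternatives. They were chosen by their interaction in these same libraries, so the kept direction is no separate evidence. The stricter adjusted p and the lack of a minimum fold left the estimates unchanged. With the replicate number as a block the interaction count was 172, that of day 1 between O2 levels 108, of day 7 13, of neurons 1 and of sample type 0 (1021 at an unadjusted p under 0.05 in edgeR), and no other count moved by over 1.5 times. Whether the replicate numbers pair the libraries was not settled, and the main fit treats the libraries as unpaired. Same-numbered libraries correlated at -0.164 to 0.42 in 24 pairs, over 0.1 in 5, and best with their own number in 11.

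The 2034 age calls at 21% O2 were 370 with all 32 libraries and 1625 to 2172 with 1 left out; the 1727 at 7% O2 were 300, 2613 with limma-voom, and 1273 to 1940. The single O2 call on day 1 became 216 with DESeq2, 11 with RLE, 227 with no filter, 36 with the CPM filter, 1114 with limma-voom, 10 without ribosomal overlaps, 17 and 158 in the added settings, 0 to 311 with 1 library left out, and, in edgeR, 0 with all 32 libraries (301 at an unadjusted p under 0.05) and 0 at an adjusted p under 0.05 (1307). The 6 on day 7 became 39 with DESeq2, 57 with no filter, 3 at an adjusted p under 0.05, 2 with limma-voom, 0 with all 32 libraries in edgeR (233), 1 to 8 with 1 left out and 2 in the second added setting. The 7 neuron calls became 121 with DESeq2 and 0 to 10 with 1 left out, and the 2 by sample type 185 with DESeq2. For mex-3 the interaction turned to -0.11 without replicate 4 of day 1 at 7% O2 and ran to 0.92 with other libraries left out. The causes were not tested. Of the named genes' values under alternatives, 2970 kept direction and side of the threshold, 276 lost and 389 gained the call; of list medians, 1122 stayed within the spread and 22 moved. Depth limits genes with few counts, such as C45E5.4, most.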
